A study of Homo sapiens with 16 samples.

Results

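The enzymes of heme biosynthesis were followed here through the H3K27ac peaks at 8 of their genes, ALAS1, ALAS2, ALAD, UROS, UROD, CPOX, PPOX and FECH, out of 19621 protein-coding genes placed in GRCh38. For each gene, all peaks with −log10 q of at least 2 (a false discovery rate of 1%) that touched the gene body or the 10 kb on either side were taken from 14 peak lists. The peaks came from ChIP-seq of H3K27ac, an acetylated histone that marks active promoters and enhancers, in K562, an untreated human erythroleukemia line that expresses globin genes. All lists are from the same line, and each holds the peaks of a single library against the input of its arm.

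The lists form 2 arms of 7 amounts of chromatin, measured as DNA content (DNA_chrom) from 0.31 to 20 µg. In the fixed arm the antibody amount was constant, so the titer, the antibody relative to chromatin scaled to an optimum of 1, fell from 32 at 0.31 µg to 0.5 at 20 µg. In the normalized arm the antibody was scaled to the chromatin and the titer was 1 throughout. A list is named by its DNA_chrom and titer, so 0.31-T32 is the lowest amount of the fixed arm and 0.31-T1 its normalized counterpart. The 10 µg lists, 10-T1a of the fixed arm and 10-T1b of the normalized arm, are the same condition, and every other condition has 1 library. Each arm has its own input, so arm and input cannot be told apart. The labels do not say whether the arms shared a chromatin preparation. The lists held 64083 to 82143 peaks covering 32.8 to 75.3 Mb, with the lowest values of both in 0.31-T32; read depths are not given in the lists. In bulk chromatin, fewer cells carrying the mark and less mark per cell cannot be told apart.

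Heme is built in a chain that starts in mitochondria, passes through the cytosol and ends in mitochondria. Aminolevulinate synthase makes the first precursor, as ALAS1 in most tissues and as ALAS2, encoded on the X chromosome, in erythroid cells, where globin synthesis needs large amounts of heme. ALAD joins aminolevulinate into porphobilinogen, UROS closes the tetrapyrrole ring, UROD and CPOX trim its side chains, PPOX oxidizes the ring and FECH inserts iron. Several of these genes are known to carry erythroid control elements beside their housekeeping promoters, among them a GATA1-bound enhancer in intron 1 of ALAS2 and an erythroid promoter inside UROS.

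The sequences just upstream of the start sites differ between the ubiquitous and the erythroid synthase. The RefSeq promoter table (GRCh38.p14) held 7 of the 8 genes, all but UROS. The 250 bases before the start site are shown for the synthase pair, for CPOX, whose arms, like those of ALAS2, did not overlap below, and for FECH, the last enzyme. Capitals mark 6 motif families searched on both strands, which may overlap: the GATA motif, spelled AGATAA or with other ends as AGATAG or else TGATAA or finally TGATAG, the CACCC-type motif CCACCC, the GC box GGGCGG, the NFE2-type motif TGANTCA, the CCAAT box and the TATA box, spelled TATAAA.
ALAS1, chr3:52197833-52198082, plus strand: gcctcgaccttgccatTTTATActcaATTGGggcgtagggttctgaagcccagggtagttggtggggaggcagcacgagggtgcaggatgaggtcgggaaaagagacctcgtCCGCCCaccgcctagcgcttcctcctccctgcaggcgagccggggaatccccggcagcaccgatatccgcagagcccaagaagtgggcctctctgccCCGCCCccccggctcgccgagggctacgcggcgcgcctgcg
ALAS2, chrX:55030978-55031227, minus strand: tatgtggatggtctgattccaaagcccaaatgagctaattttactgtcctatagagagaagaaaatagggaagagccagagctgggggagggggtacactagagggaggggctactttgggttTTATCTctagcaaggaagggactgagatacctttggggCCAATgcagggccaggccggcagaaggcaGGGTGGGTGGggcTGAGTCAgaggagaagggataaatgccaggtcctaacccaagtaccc
CPOX, chr3:98593612-98593861, minus strand: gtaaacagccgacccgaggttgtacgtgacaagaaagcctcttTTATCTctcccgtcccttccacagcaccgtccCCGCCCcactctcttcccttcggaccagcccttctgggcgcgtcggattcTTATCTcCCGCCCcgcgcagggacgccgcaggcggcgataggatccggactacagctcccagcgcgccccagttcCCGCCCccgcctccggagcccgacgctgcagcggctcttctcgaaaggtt
FECH, chr18:57586703-57586952, minus strand: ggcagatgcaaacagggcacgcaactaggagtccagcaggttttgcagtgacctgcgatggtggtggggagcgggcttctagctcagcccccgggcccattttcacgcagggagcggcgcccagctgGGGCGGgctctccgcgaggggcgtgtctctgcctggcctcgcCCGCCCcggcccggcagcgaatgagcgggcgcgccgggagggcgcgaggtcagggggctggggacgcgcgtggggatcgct

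The ALAS2 promoter held a GATA match on the reverse strand at −127 to −122, overlapping reverse CCACCC matches at −60 to −51 and TGANTCA on the forward strand at −47 to −41, counted from the start site. It held 1 CG dinucleotide and no GGGCGG, against a median of 17 CG over 15813 promoters of protein-coding genes. The CPOX promoter held GATA matches at −207 to −202 and −125 to −120 beside 3 reverse GGGCGG matches, with 27 CG. ALAS1 and FECH each held 2 GGGCGG matches and no GATA match, with 22 and 26 CG. A GATA match stood in 17.6% of all promoters and in 2 of the 7 matched members, ALAS2 and CPOX. TGANTCA stood in 5.05% and, of the members, in ALAS2 alone. GGGCGG stood in 56% of promoters and in 5 of the 7, all but ALAS2 and PPOX. CCACCC stood in 34.4%, CCAAT in 34.4% and TATAAA in 9.25%. These are letter matches in a short window and no binding was measured.

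All 8 genes carried H3K27ac at their start sites in all 14 lists. A peak lay within 1 kb of an annotated start in every list for each of the 8, against 50.1% of protein-coding genes. With −log10 q of at least 5 this held for 4 of the 8, and the share of protein-coding genes was not computed at that threshold. Merging the peaks of the 14 lists gave 104 regions in the windows, of which 19 (18.3%) had a peak in every list, against 11.2% in the windows of all tested genes and 10.9% of all merged regions. With −log10 q of at least 5, 9 regions were in every list, and the share of all merged regions was not computed at that threshold. Of these 19, 10 lay within 1 kb of the member's own start, 4 only near the start of a neighbouring gene, and 5 near no start in the RefSeq table. A further 30 regions (28.8%) came from a single list. The map of regions by distance from the start site shows both kinds.

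**Figure D1:**
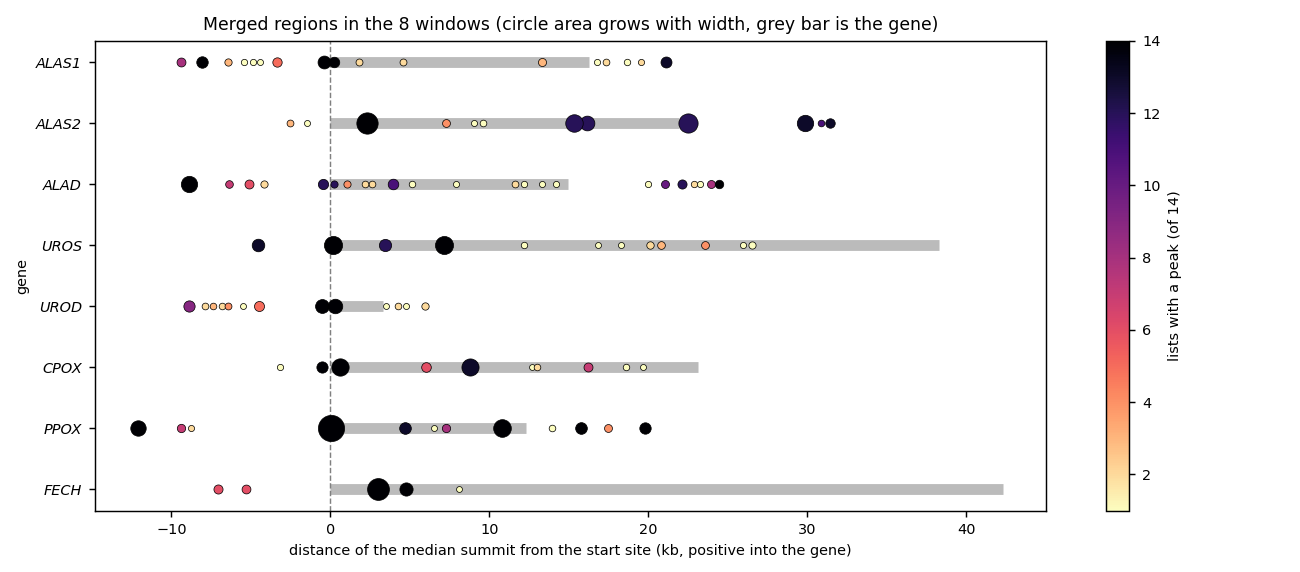
Merged H3K27ac regions in the 8 gene windows. The x axis gives the distance of the median summit from the start site in kb. Circle area grows with region width and colour gives the number of lists, of 14, with a peak. The dark circles at 0 are the start sites. Dark circles inside the grey gene bars are seen in UROS, CPOX, ALAS2, PPOX and FECH.

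Fold enrichment in 1 list is not on the scale of another, so the folds given below for the arms are described and not tested. At ALAS1, the ubiquitous synthase, the mark flanked the start on both sides. The upstream flank peaked at −394 bp from the start, at 4.77- to 8.04-fold over input in the fixed arm and 5.67- to 10.75-fold in the normalized arm. The downstream flank peaked in intron 1, 216 bp from the start, at 5.79- to 14.33-fold and 8.59- to 14.34-fold. A distal region at chr3:52189416-52191365, at −8087 bp and near no annotated start, was present in all 14 lists at 4.05- to 5.91-fold in the fixed and 4.86- to 8.27-fold in the normalized arm. Another, 21136 bp downstream of the start, was present in 13 lists. The arms overlapped at each of these sites.

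At ALAS2, the erythroid synthase, a region of 7883 bp at chrX:55024267-55032149 covered the start and much of intron 1, with its summit in intron 1, 2283 bp from the start. Its fold enrichment ran from 4.16 to 11.47 with a median of 6.67 in the fixed arm, and from 12.7 to 19.5 with a median of 15.73 in the normalized arm. The arms did not overlap. The annotated start of PAGE2B, a cancer-testis antigen gene on the opposite strand, lies inside this region. Further into the gene, adjoining regions with summits in exon 8 (chrX:55015348-55020496) and exon 9 (chrX:55011607-55015126) flanked intron 8, where a second erythroid enhancer is known. Both were absent from 0.31-T32 and 0.62-T16, reached at most 8.83- and 6.43-fold in the rest of the fixed arm, and ran from 9.51 to 15.6 and from 6.57 to 13.63 in the normalized arm. A region at the 3′ end, shared with the end of APEX2, a DNA repair endonuclease gene, was likewise in 5 fixed lists at up to 5.7-fold and in all 7 normalized lists at 5.93- to 8.6-fold.

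At UROS, which closes the ring, 2 separate regions were present in all 14 lists. The region over the start (chr10:125821514-125827115) also holds the start of BCCIP, a neighbouring gene read in the other direction, and ran from 4.43- to 13.53-fold and from 11.53- to 17.28-fold in the fixed and normalized arm. The other, at chr10:125813431-125818940 with its summit 7171 bp into the gene in intron 3 of the canonical transcript, was near no RefSeq start. GENCODE places the first exons of transcripts UROS-203 and UROS-221 there, 6626 and 6748 bp downstream of the canonical start. This alternative promoter ran from 4.86- to 11.84-fold (median 7.02) in the fixed arm and from 12.46- to 17.2-fold (median 13.37) in the normalized arm, with no overlap. Of the 19 regions common to all lists, it and the ALAS2 start region were the 2 whose normalized folds all exceeded the fixed folds; over common regions in all tested windows 5.48% did so.

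At CPOX, the flanks of the start ran from 5.36- to 11.82-fold inside the gene and from 4.78- to 15.04-fold upstream in the fixed arm. In the normalized arm they ran from 9.53- to 14.15-fold and from 13.11- to 19.83-fold. A region in intron 5 (chr3:98582158-98587087), 8789 bp from the start, was absent from 0.62-T16, ran from 4.34- to 9.65-fold in the other 6 fixed lists and from 10.89- to 15.05-fold in the normalized lists. A weaker region, chr3:98577064-98578069, 16215 bp from the start, lay inside the RefSeq gene but 3′ of the GENCODE canonical transcript. It was found in all 7 normalized lists at 3.6- to 5.24-fold and in no fixed list. Of the regions in tested windows 0.109% had this pattern, and this was the 1 member region that did.

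At FECH, which inserts the iron, a region of 8267 bp (chr18:57582821-57591087) ran across the start and into intron 1, at 7.44- to 15.04-fold in the fixed and 11.83- to 18.52-fold in the normalized arm. A separate region in intron 1 at chr18:57579859-57582598, 4770 bp from the start and near no other annotated start, was present in all 14 lists. It ran from 3.69- to 7.17-fold in the fixed and from 5.67- to 7.65-fold in the normalized arm. The remaining 3 regions in this window, the longest of the 8, were not in all lists.

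ALAD, UROD and PPOX lie in gene-dense surroundings, and much of the signal in their windows belonged to neighbours. The strongest ALAD-window peak in all 14 lists lay at −8869 bp over the starts of POLE3 and C9orf43, at 7.43- to 16.46-fold and 14.68- to 19.95-fold. By rank within its own list it overlapped between the arms, at percentile 90.91 to 99.73 in the fixed and 96.02 to 98.62 in the normalized arm. The peaks at the ALAD start itself were weaker, at 3.62- to 6.28-fold in the fixed and 5.44- to 10.75-fold in the normalized arm. Each flank of the ALAD start was called in 12 of 14 lists, missing from 2 fixed lists each, and a region in intron 1 of ALAD, 3971 bp from the start, was called in 11 lists. The 3058 bp region before the UROD start also holds the start of HECTD3, a ubiquitin ligase gene, and the GENCODE start of UROD-225 at −1304 bp. The region over UROD itself ran from 5.53- to 16.35-fold and from 10.45- to 18.85-fold. PPOX shared a region of 12131 bp, the widest of the 104, with the start of USP21, at 6.6- to 16.08-fold and 12.65- to 16.14-fold.

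The position of the peaks relative to the start differed among the genes. At ALAS1, ALAD, UROD and CPOX a stretch within 300 bp of the start was covered in none of the 14 lists although 10 or more lists had a peak on each side within 1 kb. The empty stretch was 182 positions at ALAS1, 161 at CPOX and 167 at UROD, and 250 positions at ALAD before the scan reached its limit. At UROS and FECH the fewest lists over any position were 11, at ALAS2 8 and at PPOX 7. Among 8142 genes with such flanks 35.3% had an empty stretch, so the 4 of 8 here are near the background. This property was chosen after the values were seen.

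**Figure D2:**
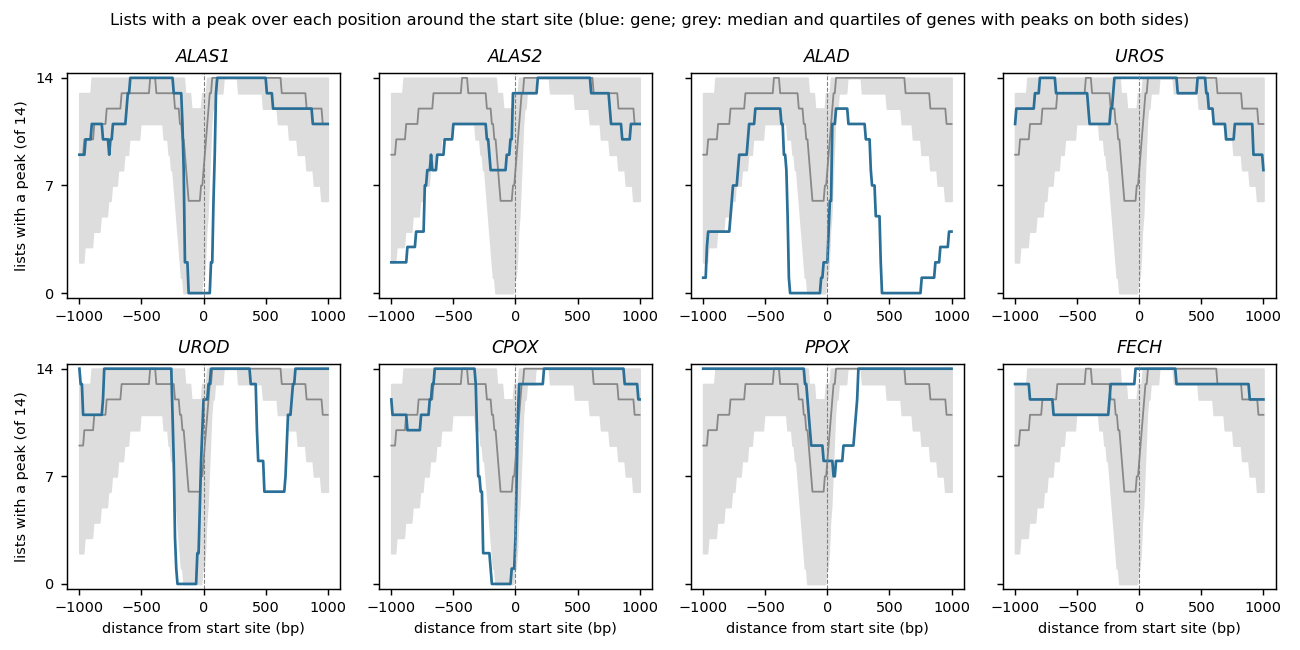
Number of lists, of 14, with a peak over each position from 1 kb before to 1 kb after the start site. Blue is the named gene and grey the median and quartiles of the 8142 genes with 10 or more lists on both sides; ALAS1, ALAD, UROD and CPOX fall to 0 just before the start, whereas UROS and FECH stay at 11 or more within 300 bp of it.

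The design asks how the recovered marks change when the antibody is in excess. In the fixed arm the share of the window covered by peaks was lower at higher titer for all 8 enzymes, and for 13199 of 13980 tested genes. The fall passed the test for 5 of the 8: ALAS2, UROS, CPOX, PPOX and FECH. This was tested per gene by an exact two-sided permutation of Pearson's r with log2 titer over all pairings of the 7 lists, adjusted by Benjamini-Hochberg over 13980 genes with a peak in at least 4 lists. Over all tested genes 54.8% fell with adjusted p under 0.05, so the 5 of 8 stand near the background. The median r was −0.91 over the 8 and −0.842 over all tested genes. Titer and chromatin amount move together in this arm and cannot be told apart. Without 0.31-T32 the test passed for 2 of the 8, ALAS2 and FECH, and for 11.9% of tested genes.

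ALAS2 covered from 4.95% of its 41.9 kb window in 0.31-T32 to 27.6% in 10-T1a, with a median of 16.7%. Its covered share fell with titer (r = −0.981, permutation p = 0.000794, adjusted p = 0.00935; rho = −0.964, permutation p = 0.00278). Without the 2 lists of most extreme titer r was −0.997. FECH rose from 3.31% in 0.31-T32 to 14.4% in 20-T0.5 in strict order of titer (r = −0.978, permutation p = 0.000397, adjusted p = 0.00882; rho = −1, permutation p = 0.000397), and r was −0.976 without the 2 lists of most extreme titer. PPOX ran from 28.9% to 53.7% (r = −0.94, adjusted p = 0.015), UROS from 4.88% to 18% (r = −0.932, adjusted p = 0.0188) and CPOX from 5.32% to 14.6% (r = −0.888, adjusted p = 0.0294), all by the exact permutation test, with rho of −0.893, −0.929 and −0.821 at permutation p = 0.0123, 0.00675 and 0.0341. Without the 2 lists of most extreme titer r was −0.964, −0.863 and −0.905. ALAS1 ran from 8.51% to 14.5%, ALAD from 8.02% to 17.2% and UROD from 12.9% to 33.8%, with r of −0.714, −0.739 and −0.623 that did not pass (adjusted permutation p = 0.105, 0.0921 and 0.169).

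**Figure D3:**
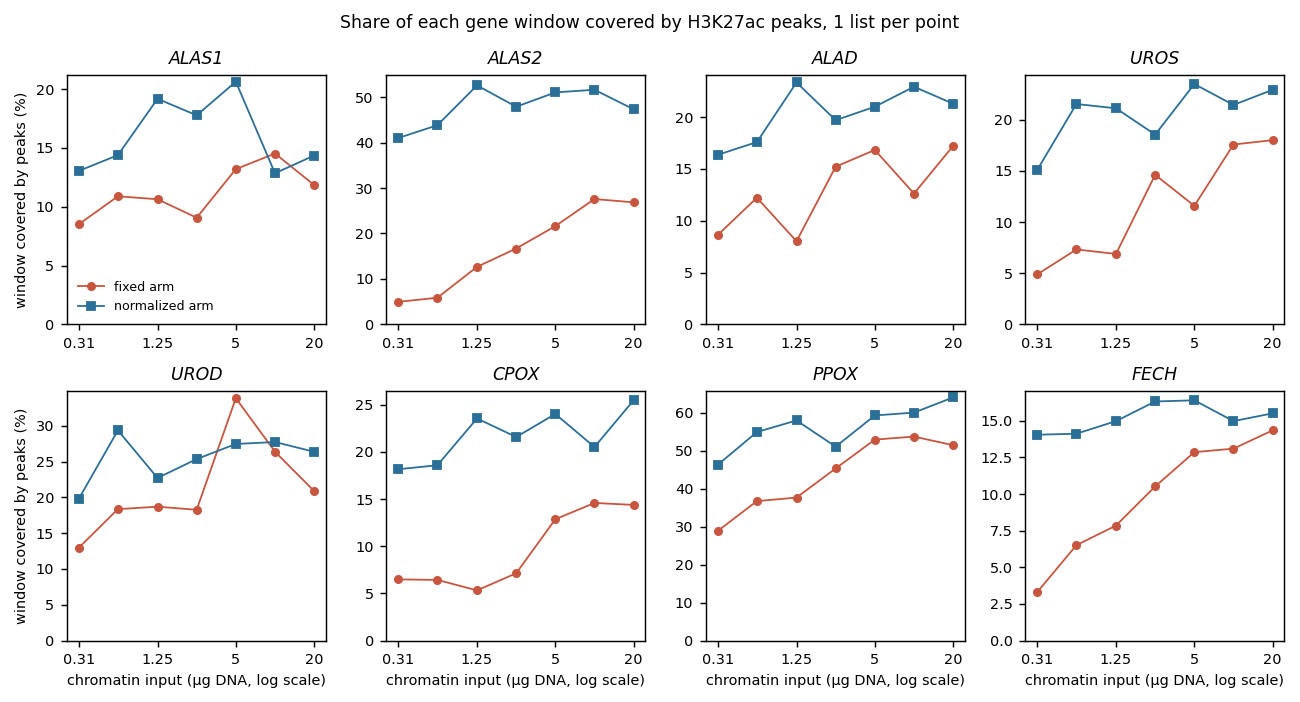
Share of each gene window covered by H3K27ac peaks against chromatin amount on a log scale, 1 list per point, fixed arm in red and normalized arm in blue; each y axis has its own range from 0. The blue points of ALAS2, 41% to 52.6%, and of CPOX, 18.2% to 25.5%, lie above all red points of the same gene, whereas the arms overlap for the other 6 genes.

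At matched chromatin amounts the normalized arm covered more of these windows. The arms were compared at the 6 amounts where the titers differ. Arm, input and chromatin preparation cannot be told apart in these differences. In the 10 µg pair of equal titer the arms differed as well, by −1.67 points for ALAS1 to 24.05 for ALAS2. The covered share was higher in the normalized list at all 6 amounts for 7 of the 8 enzymes, all but UROD, which was higher at 5. Over all tested genes 44.1% were higher at all 6. For these 7 genes the exact two-sided sign-flip test gave p = 0.03125, the smallest that 6 pairs allow, and adjusted p = 0.0698, so none passes an adjusted threshold of 0.05. In the gene body alone 4 of the 8 were higher at all 6 amounts. Over the alternative settings, the gene body alone among them, the share of tested genes higher at all amounts was 10.4% to 45%. The median of the mean differences was 8.38 percentage points over the 8 and 1.68 over all tested genes. Differences in points depend on how much of a window is covered. In the fixed arm the median covered share was 7.49% to 17.61% over the 8 and 3.5% to 7.22% over all tested genes.

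The differences varied widely among the enzymes. ALAS2 was 32.5 ± 7.12 points (SD, 6 amounts) higher in the normalized arm, with a fixed mean of 14.8% and a normalized mean of 47.3%. PPOX was higher by 13.4 ± 6.26, CPOX 13.1 ± 2.78, UROS 9.9 ± 4.51, ALAD 6.86 ± 4.36, FECH 6 ± 3.34 and ALAS1 5.87 ± 2.69 points. UROD differed by 4.67 ± 5.9 points (exact p = 0.125). As ratios of these means, ALAS2 was 3.2 and CPOX 2.5 times as high in the normalized arm, and the other 6 were 1.23 to 1.94 times as high. The same ratio is not given here for all tested genes. The histogram of the differences of all tested genes places ALAS2 at its upper end.

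**Figure D4:**
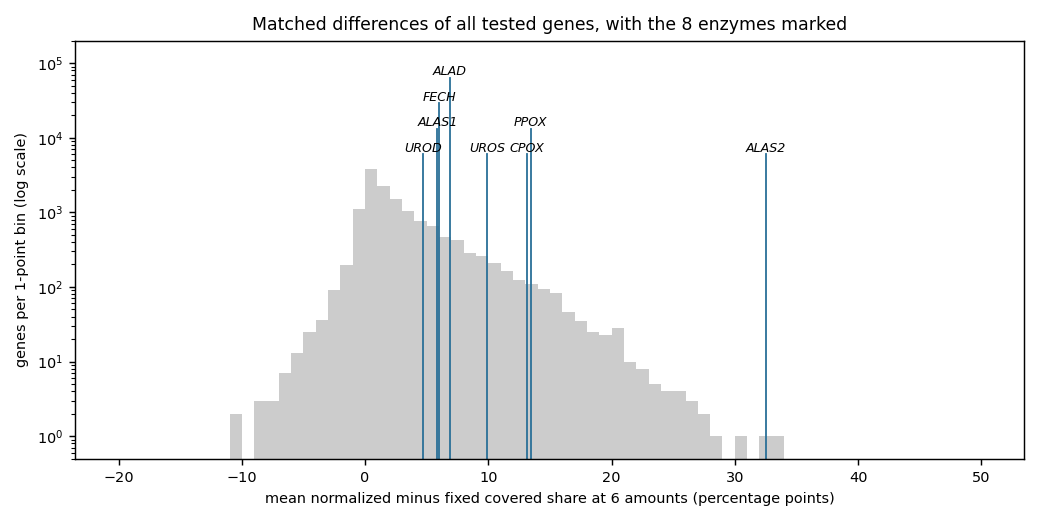
Mean normalized minus fixed covered share over 6 chromatin amounts for 13980 tested genes, in bins of 1 percentage point with the number of genes on a log scale. Blue lines mark the 8 enzymes, from UROD at 4.67 to ALAS2 at 32.5.

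The arms of ALAS2 differed at equal titer too. In the normalized arm its covered share ran from 41% in 0.31-T1 to 52.6%, with a median of 47.9%, and every fixed list lay below all of these. In the 10 µg pair of the same condition it was 27.6% in 10-T1a and 51.6% in 10-T1b. That difference of 24.1 points ranked 1 of 13980 genes, and the mean difference over the 6 amounts ranked 2. The gene ranked above it there, and just below it in the 10 µg pair, was APEX2, whose window overlaps that of ALAS2 and whose differences were 33.3 and 24 points. These ranks were looked up after the values were seen. Over all tested genes the 10 µg difference had a median of 0.43 points, with 5th and 95th percentiles of −3.42 and 7.15. For the 453 tested genes of the X chromosome the median was 0.26 points.

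Of the peaks touching the 1 kb on either side of the ALAS2 start, the strongest showed the same split. Its fold ran from 3.87 to 11.5 in the fixed arm and from 12.7 to 19.5 in the normalized arm. In the 10 µg pair it was 6.36 in 10-T1a and 12.7 in 10-T1b. This peak could reach far into the gene, from −500 to 5340 bp in 10-T1b against −45 to 854 bp in 0.31-T32. Its fold is thus not separate from that of the region over the start and intron 1. ALAS2 was the 1 enzyme of 8 whose start-site folds did not overlap between arms, against 3.93% of tested genes. Ranked within its own list, the lists differing in length from 64083 to 82143 peaks, the start-site peak stood at percentile 23 to 91.3 of the peaks in the fixed arm and at percentile 91.7 to 98.4 in the normalized arm. Without the bases within 2 kb of the starts of other genes, an alternative added after the data were seen, the covered share was 2.6% to 18.6% in the fixed arm and 33.9% to 44.9% in the normalized arm. Of the nearest tested genes outside the overlapping windows, MAGED2 differed by 2.85 and VCF2 by −0.4 points in the 10 µg pair. The arms of MAGED2 did not overlap either, at 3.11% to 7.44% in the fixed and 7.6% to 10.28% in the normalized arm. Those of VCF2 overlapped. The input cannot be told apart from the arm in this difference, and the labels do not say whether the arms shared a chromatin preparation.

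**Figure D5:**
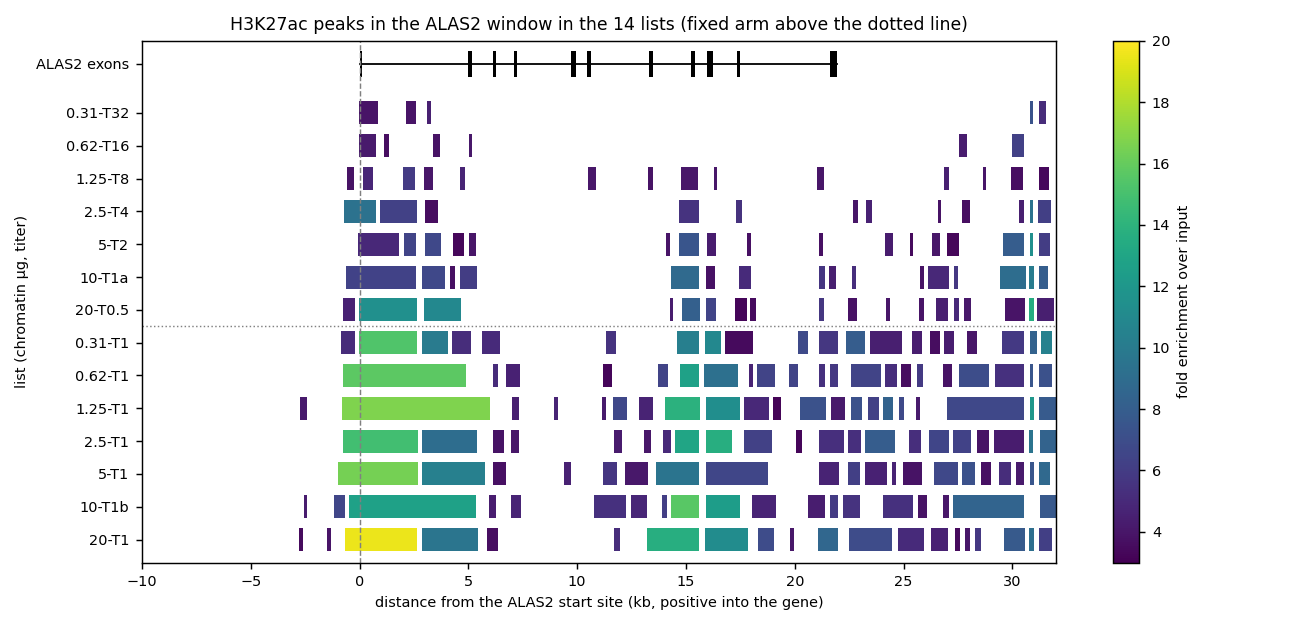
H3K27ac peaks in the ALAS2 window against distance from the start site in kb, 1 row per list, fixed arm above the dotted line and normalized arm below, coloured by fold over input; black boxes are the 11 exons. The regions over intron 1 and around exons 8 and 9 hold more covered bases and a higher fold in every normalized list than in any fixed list. Single blocks are not always wider, as around exon 8 in 0.31-T1 against 10-T1a. The regions around exons 8 and 9 are missing from 0.31-T32 and 0.62-T16.

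CPOX shared this separation of the arms. Its covered share ran from 5.32% to 14.6% with a median of 7.13% in the fixed arm, and from 18.2% to 25.5% with a median of 21.6% in the normalized arm. In the 10 µg pair CPOX was 14.6% in 10-T1a and 20.5% in 10-T1b. The arms did not overlap for these 2 of the 8 enzymes, and for 6.25% of tested genes. The 10 µg difference was positive for 7 of the 8, against 62.8% of tested genes, at 10.3 points for ALAD, 6.32 for PPOX, 5.93 for CPOX, 3.87 for UROS, 1.88 for FECH and 1.35 for UROD, and −1.67 for ALAS1. Its median over the 8 was 4.9 points.

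The length of genome a list covered moved with titer and arm, and on a scale relative to it ALAS2 and CPOX kept their difference between the arms. The covered length ran from 32.8 to 65.3 Mb in the fixed arm and from 54.4 to 75.3 Mb in the normalized arm. Expressed per Mb covered by the list, ALAS2 alone of the 8 passed the test of a fall with titer (r = −0.95, exact permutation p = 0.00119, adjusted p = 0.041), against 2.03% of tested genes. FECH (r = −0.861, adjusted permutation p = 0.0504), UROS (r = −0.771, adjusted permutation p = 0.201) and CPOX (r = −0.554, adjusted permutation p = 0.385) had negative r and did not pass. For ALAD, ALAS1, PPOX and UROD r turned positive, at 0.214, 0.753, 0.836 and 0.237, none with an adjusted p under 0.05. On this scale ALAS2 and CPOX were higher in the normalized list at all 6 amounts, against 10.4% of tested genes (15.6% were lower at all 6). ALAS2 took 62.4 to 177.6 bp per Mb in the fixed and 271.9 to 316.1 in the normalized arm. CPOX took 55.6 to 97.8 and 122.6 to 150.6. FECH and UROS were higher at 5 amounts, ALAS1 and ALAD at 4, UROD at 2 and PPOX at 1. The mean difference on this scale, relative to the fixed mean, ranked at percentile 97.1 of tested genes for ALAS2 and 94.7 for CPOX. For UROS, FECH, ALAD and ALAS1 it ranked at 88.9, 80.6, 68.9 and 65.6, and for PPOX and UROD at 46.1 and 35.6.

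Within the normalized arm, where titer was constant, the covered share did not pass the test against log2 DNA_chrom for any enzyme. No tested gene did (0% with adjusted p under 0.05 by the exact permutation test). At an unadjusted p under 0.05, 1 of the 8 rose with chromatin amount, against 20.8% of tested genes. This was PPOX, from 46.3% in 0.31-T1 to 64% in 20-T1 (r = 0.835, permutation p = 0.0198, adjusted p = 0.176; rho = 0.893), with r = 0.496 without the 2 lists of most extreme amount. The median r was 0.649 over the 8 and 0.533 over all tested genes. The r was positive for all 8 enzymes and for 12796 of 13980 tested genes. No single gene passed after adjustment with 7 lists, which does not show that there was no gain with chromatin amount.

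The difference between the arms narrowed towards high chromatin amounts for FECH, from 10.7 points at 0.31 µg to 1.15 at 20 µg (r with log2 DNA_chrom = −0.986, exact permutation p = 0.000397, adjusted p = 0.101). For ALAS2 it was 36.1 points at 0.31 µg and 20.5 at 20 µg (r = −0.906, exact permutation p = 0.00873, adjusted p = 0.148). Neither passed after adjustment, and no tested gene did (0%), while 21.2% narrowed at an unadjusted p under 0.05. The other 6 enzymes had unadjusted p over 0.05. This test was added after the data were seen.

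The percentile of the strongest peak in the window within its own list did not pass the test against log2 titer in the fixed arm for any enzyme or any tested gene (0% with adjusted p under 0.05 by the exact permutation test). At an unadjusted p under 0.05 it was 0 of the 8 and 12.4% of tested genes, with a median r of −0.296 over the 8 and −0.284 over all. In the fixed arm this percentile ran from 59.7 to 98.8 for UROS, from 73.1 to 93.3 for ALAS2, from 74.8 to 93.7 for ALAS1 and from 90.2 to 97.3 for CPOX. The lists differ in their number of peaks and many of these values are near the top of the scale, so a p over the threshold does not show that the rank was stable.

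Other genes of the pathway were described in the same way. Of 22 genes for heme transport, iron-sulfur cluster assembly and heme breakdown, 16 passed the fall with titer, against 54.8% of tested genes. In the normalized arm 17 were higher at all 6 amounts, against 44.1%, and 21 had a start-site peak in all 14 lists, against 50.1% of protein-coding genes. Their median matched difference was 4.41 points and their median 10 µg difference 0.88. SLC25A38, the mitochondrial glycine carrier, covered 11.6% to 24.4% of its window in the fixed and 25.5% to 32.2% in the normalized arm, with no overlap. SLC25A37, which brings iron into mitochondria, covered 9.88% to 24% and 23.8% to 40.4%. TMEM14C, a porphyrin transporter, covered 14.5% to 27.2% and 21.5% to 28.6%. HMOX1, which breaks heme down, covered 10.9% to 21% and 19.4% to 30.4%, but was the 1 gene of the list without a start-site peak in all lists, having it in 4.

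The erythroid label of the line was checked on marker genes. All 7 erythroid markers (GATA1, TAL1, KLF1, NFE2, EPOR, HBG1 and HBG2) had a start-site peak in all 14 lists. Of 6 genes of other cells, CD79A had one in all lists, CD3D in 9, and CD3E, MS4A1, ALB and MYT1 in none. The summed covered share of the erythroid markers ran from 204.2 to 403.4 points in the fixed and from 386.3 to 431.5 in the normalized arm, and that of the other genes from 30.2 to 55.5 and from 24.8 to 53.7. In the 10 µg pair the erythroid markers differed by −6.72 points (TAL1) to 5.83 (GATA1), against 24.1 for ALAS2.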

How the data were processed

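H3K27ac ChIP-seq libraries of K562 cells were sequenced by the authors, aligned (BWA 0.5.9 and CASAVA 1.4 are named in the submitters' processing notes, with hg38) and called with MACS2 against the input of each arm. The deposited lists give for each peak a fold enrichment over input (a ratio) and a −log10 q-value, per the file format; they reach a q of 5%, and peaks with −log10 q of at least 2 were used. The study names hg19, but the contigs in the lists are those of GRCh38. The lists hold no read counts, and the read totals of the study were not used here, so no interval for counting error was set. No columns were left unmapped (0), and the 2 input libraries have no list.

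Gene bodies came from RefSeq (GRCh38.p14), of which 19621 of 19974 with coding products (98.2%) could be placed with a strand on an autosome or X; the strand of UROS came from GENCODE. Exons and alternative starts came from GENCODE v44 at the GRCh38 positions it records. For each list the share of the window (gene body and 10 kb flanks) covered by peaks, the fold and within-list percentile of the strongest peak, and the same within 1 kb of a start were computed with Python 3.11.15 and numpy 2.4.6, and figures drawn with matplotlib 3.10.9. Genes with a peak in at least 4 of 14 lists were tested by exact two-sided permutation or sign-flip tests, adjusted by Benjamini-Hochberg over all genes tested. The tests recovered known answers on simulated data with noise independent between genes. Effects that 1 library shares over all genes were not simulated. With 1 library per condition, p-values measure the order along a series of libraries. The members, the lists of partner and marker genes and the tests were chosen with earlier results of these data known. All 8 enzymes are named; of 22 partner genes 4 were named by role, and other genes where their start lies in a window or where a stated rank named them. Alternatives were other q thresholds, flanks, filters, scalings, scales and leaving out each library. Some marker genes are not reported here.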

Additional observations from a re-analysis of the deposited data

How the results depend on the processing

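All 8 enzymes kept a lower covered share at higher titer and a higher one in the normalized arm under every threshold, flank, filter and left-out library tried; the exception was scaling by the length a list covers, where r with titer was 0.214 for ALAD, 0.753 for ALAS1, 0.836 for PPOX and 0.237 for UROD, 1 enzyme passed the titer test and 2 were higher at all 6 amounts. Leaving out each library in turn left 2 to 5 enzymes past the titer test, and 2 without 0.31-T32 and 3 without 2.5-T4, while the share of all tested genes called in either direction was 11.9% and 22.2% (55% with all libraries); the cause was not tested. ALAS2 and FECH passed without any library, UROS failed without 0.31-T32, PPOX without 0.31-T32 or 2.5-T4, and CPOX without any of 6 of the 7 libraries, with linear titer and by Spearman. PPOX also failed with a flank of 2 kb and for the gene body alone. ALAS1 passed with the full lists (adjusted permutation p = 0.0259), at −log10 q of at least 3 (0.0269) and with a flank of 2 kb (0.0368), and ALAD at −log10 q of at least 3 (0.04998) and 5 (0.0267), so that up to 7 enzymes passed. The share of all tested genes called ran from 5% to 67.6% over the alternatives other than leaving out a library. Leaving out each amount left 7 or 8 enzymes higher at all remaining amounts, against 44.6% to 54.7% of tested genes. With the gene body alone 4 were, and ALAD, ALAS1 and FECH were not. Over the alternative settings, this one among them, 10.4% to 45% of tested genes were higher at all amounts. The titer test, a separate test, passed for 34.1% of tested genes with the gene body alone. At −log10 q of at least 5, 9 regions were in all 14 lists and 4 enzymes had a start-site peak in all 14, and 32 regions were in at least 12 lists at the main threshold. The shares of all merged regions and of all protein-coding genes were not computed for these counts. With the 10 µg pair included, ALAS1 was no longer higher at every amount. No alternative gave an adjusted call in the normalized arm or for the strongest peak.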

Other observations

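The region over the start of UFC1, at the far upstream edge of the PPOX window, ran against the enzymes. Its fold was 7.37 to 18.32 with a median of 11.39 in the fixed arm and 5.16 to 10.03 with a median of 7.1 in the normalized arm, and in the 10 µg pair it was 18.32 in 10-T1a and 8.82 in 10-T1b. The region over PPOX itself ran the other way by its medians, 11.16 and 15.07, although it was 16.08 in 10-T1a and 12.65 in 10-T1b.

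Of 12185 genes with a peak in all 14 lists and outside overlapping windows, the 3 whose covered share over the 14 lists was most like that of ALAS2 were UNC5C, CLTC and EMC3, with Pearson's r of 0.991, 0.99 and 0.99. UNC5C covered 0.3% to 1.4% of its window in the fixed and 1.8% to 2.3% in the normalized arm, CLTC 5.7% to 19% and 21.8% to 29%, and EMC3 9.6% to 16.6% and 19.4% to 24.1%. These 14 points share arms, inputs and the covered length of each list.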
